A study of Saccharomyces cerevisiae with 21 samples.

Results

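The genes examined were the 9 genes for the translation elongation machinery of Saccharomyces cerevisiae, taken by their systematic names out of 6692 genes in the deposited table. They were TEF1 (YPR080W) and TEF2 (YBR118W), which encode eEF1A, EFB1 (YAL003W), which encodes the catalytic exchange subunit eEF1Bα, TEF4 (YKL081W) and CAM1 (YPL048W), which encode the eEF1Bγ subunits, EFT1 (YOR133W) and EFT2 (YDR385W), which encode eEF2, YEF3 (YLR249W), which encodes the fungal ATPase eEF3, and HYP2 (YEL034W), which encodes eIF5A. All 9 passed the filter on low counts, which kept 6254 genes. The genes were listed by what their products do, and TEF1 and TEF2 were included as known targets of the transcription factor Rap1. Earlier results of these data were known when the list was chosen.

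As background, eEF1A carries aminoacyl-tRNA to the ribosome as a complex with GTP, and the eEF1B subunits exchange the spent GDP for GTP so that it can be used again. The factor eEF2 moves the ribosome along the mRNA by a codon, eEF3 is an additional factor of fungi that assists the release of the spent tRNA, and eIF5A relieves ribosomes that stall on difficult peptide sequences. Yeast carries duplicated genes for several of these factors, and the mRNAs are among the abundant transcripts of growing cells. Rap1 is a general regulatory factor that binds upstream of many ribosomal protein genes and other genes of the translation apparatus. Sth1 is the ATPase of RSC, the chromatin remodeller that keeps promoters free of nucleosomes.

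The study asked how RSC and Rap1 control transcription from promoters. Polyadenylated RNA of 7 groups was sequenced from 3 biological replicates each (21 libraries), and cells of Schizosaccharomyces pombe were mixed in before RNA extraction as a spike-in. All 4 strains were MATa derivatives of BY4741 labelled his3D1 leu2D0 met15D0 ura3D0 and carried Rpb3 with a 3xFLAG tag. The wild type (WT) was untreated and had neither a degron tag nor the auxin receptor osTIR. The STH1-AID strain carried STH1-3V5-IAA7, the RAP1-AID strain carried RAP1-3V5-IAA7, and the STH1-AID RAP1-AID strain carried both, each together with osTIR driven by the GPD1 promoter. Each of these degron strains was treated with 500 µM indole-3-acetic acid (IAA), an auxin that sends the tagged protein for degradation, or with the solvent DMSO. No library came from untagged cells given IAA, and an effect of IAA itself and the loss of a tagged protein therefore cannot be told apart.

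The libraries held between 20901972 and 29090954 S. cerevisiae counts and between 1144357 and 3486097 S. pombe counts, and the raw count of a single member ranged from 3897 to 253529. Their quotient, S. cerevisiae over S. pombe, ran from 7.10 to 22.2 and varied within groups, which widens the error of every spike-in value. Against the spike-in, fewer S. cerevisiae cells and less mRNA per cell cannot be told apart. Replicate 3 of STH1-AID with DMSO (quotient 22.2), replicate 3 of RAP1-AID with DMSO (21.2) and replicate 1 of STH1-AID RAP1-AID with DMSO (18.1) stood above the other libraries of their groups. The a-cell markers MFA1, MFA2, STE2 and BAR1 had between 608 and 32561 raw counts and the α-cell markers MF(ALPHA)1, MF(ALPHA)2 and STE3 had between 0 and 468, the pattern of a MATa strain. Of the labelled auxotrophies, URA3 had 0 counts in all libraries and LEU2 at most 3, while HIS3 had between 531 and 1453, and the his3D1 allele is a partial deletion. The paper lists a LEU2 marker with the osTIR construct of the degron strains, and why LEU2 counts were this low in them was not tested. MET17, the gene deleted by met15D0, ranged from 1 to 16 raw counts over the 6 libraries of the STH1-AID strain but from 2373 to 7502 over the other 15, which goes against the label of the other strains. The part that this difference in methionine genotype has in the differences between strains was not tested.

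TEF1 and TEF2 lie on chromosome XVI (700594 to 701970) and chromosome II (477671 to 479047) of the R64-1-1 build, and each is a single coding exon of 1377 bases. Their coding sequences differed at 2 positions, T762C and T834C (the base of TEF1 first and that of TEF2 last, counted from 1 at the A of the start codon). Both changes fall on the last base of a codon and leave the same residue, so the 458-residue proteins are identical. The stretch that holds both differences, positions 750 to 846, is shown with the 2 bases in capitals (TEF1 at chrXVI:701343-701439 and TEF2 at chrII:478420-478516, both on the + strand). These 2 bases are what separates reads that lie within the 2 coding sequences.
TEF1: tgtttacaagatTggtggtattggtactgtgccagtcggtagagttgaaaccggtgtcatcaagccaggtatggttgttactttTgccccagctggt
TEF2: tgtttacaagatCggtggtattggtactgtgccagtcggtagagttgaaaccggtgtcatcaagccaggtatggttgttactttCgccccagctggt
Of the 1277 words of 101 bases in each coding sequence, 173 (13.5%) occurred once in the genome. The authors kept uniquely mapped reads and counted paired fragments. Counts of TEF1 and TEF2 can therefore rest on fragments that reach such words or sequence outside the reading frame, which was not searched for unique words. The split between the copies is uncertain.

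EFT1 (chromosome XV, 575098 to 577626) and EFT2 (chromosome IV, 1243230 to 1245758) are a second pair of this kind, with coding exons of 2529 bases and identical proteins of 842 residues. They differed at 4 positions, A447G, C882T, C2145T and C2364T, again without a change of residue, and 404 of 2429 words (16.6%) were unique. The surroundings of the A447G position are shown for both copies, with the differing base in capitals (EFT1 at chrXV:575529-575559 and EFT2 at chrIV:1243661-1243691, both on the + strand).
EFT1: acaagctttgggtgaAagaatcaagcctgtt
EFT2: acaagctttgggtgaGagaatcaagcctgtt
The other 5 members were unique in all of their words. TEF4 (chromosome XI, 282891 to 284455) and CAM1 (chromosome XVI, 464401 to 465648) encode related proteins with 64.5% identical residues. TEF4 and EFB1 (chromosome I, 142174 to 143160) have an intron of 326 and 366 bases, and since alignment was unspliced, fragments across their exon junctions are missing from the counts. HYP2 (chromosome V, 85676 to 86149) overlaps the dubious frame YEL034C-A on the opposite strand, and counting was strand-specific. YEF3 lies on chromosome XII (636780 to 639914).

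In WT, the values of the 9 genes fell into a higher and a lower class. They are given as the raw count divided by the S. pombe size factor and by the coding length (normalised count per kb, mean ± SD, n = 3). Reads that map to 2 copies were lost, and 13.5% of the words of TEF1 and TEF2 and 16.6% of those of EFT1 and EFT2 were unique. Divided by the full coding length, these genes are therefore understated. Their place in the order and ranks below is uncertain, and the summed share is affected too. EFB1 had 94597 ± 24856, HYP2 had 87158 ± 25834, TEF2 had 78044 ± 19989, YEF3 had 60163 ± 16033, TEF4 had 58993 ± 15481 and TEF1 had 55357 ± 13643. EFT2 had 16747 ± 4271, EFT1 had 12038 ± 3327 and CAM1 had 10341 ± 2363. Neighbours in this order differed by less than the larger of their SDs, with the exception of the steps from TEF1 to EFT2 and from EFT2 to EFT1. Within each of the 3 WT libraries, TEF2 had more counts than TEF1 and EFT2 more than EFT1. Among all 6692 genes, ranked in WT by normalised count per kb of the gene length in the deposited table, which includes the introns of TEF4 and EFB1, HYP2 stood at 42, TEF2 at 50, YEF3 at 61, EFB1 at 62, TEF1 at 68 and TEF4 at 87, while EFT2, EFT1 and CAM1 stood at 315, 435 and 520. These genes together took 2.14 ± 0.0546% of the S. cerevisiae counts of WT.

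**Figure D1:**
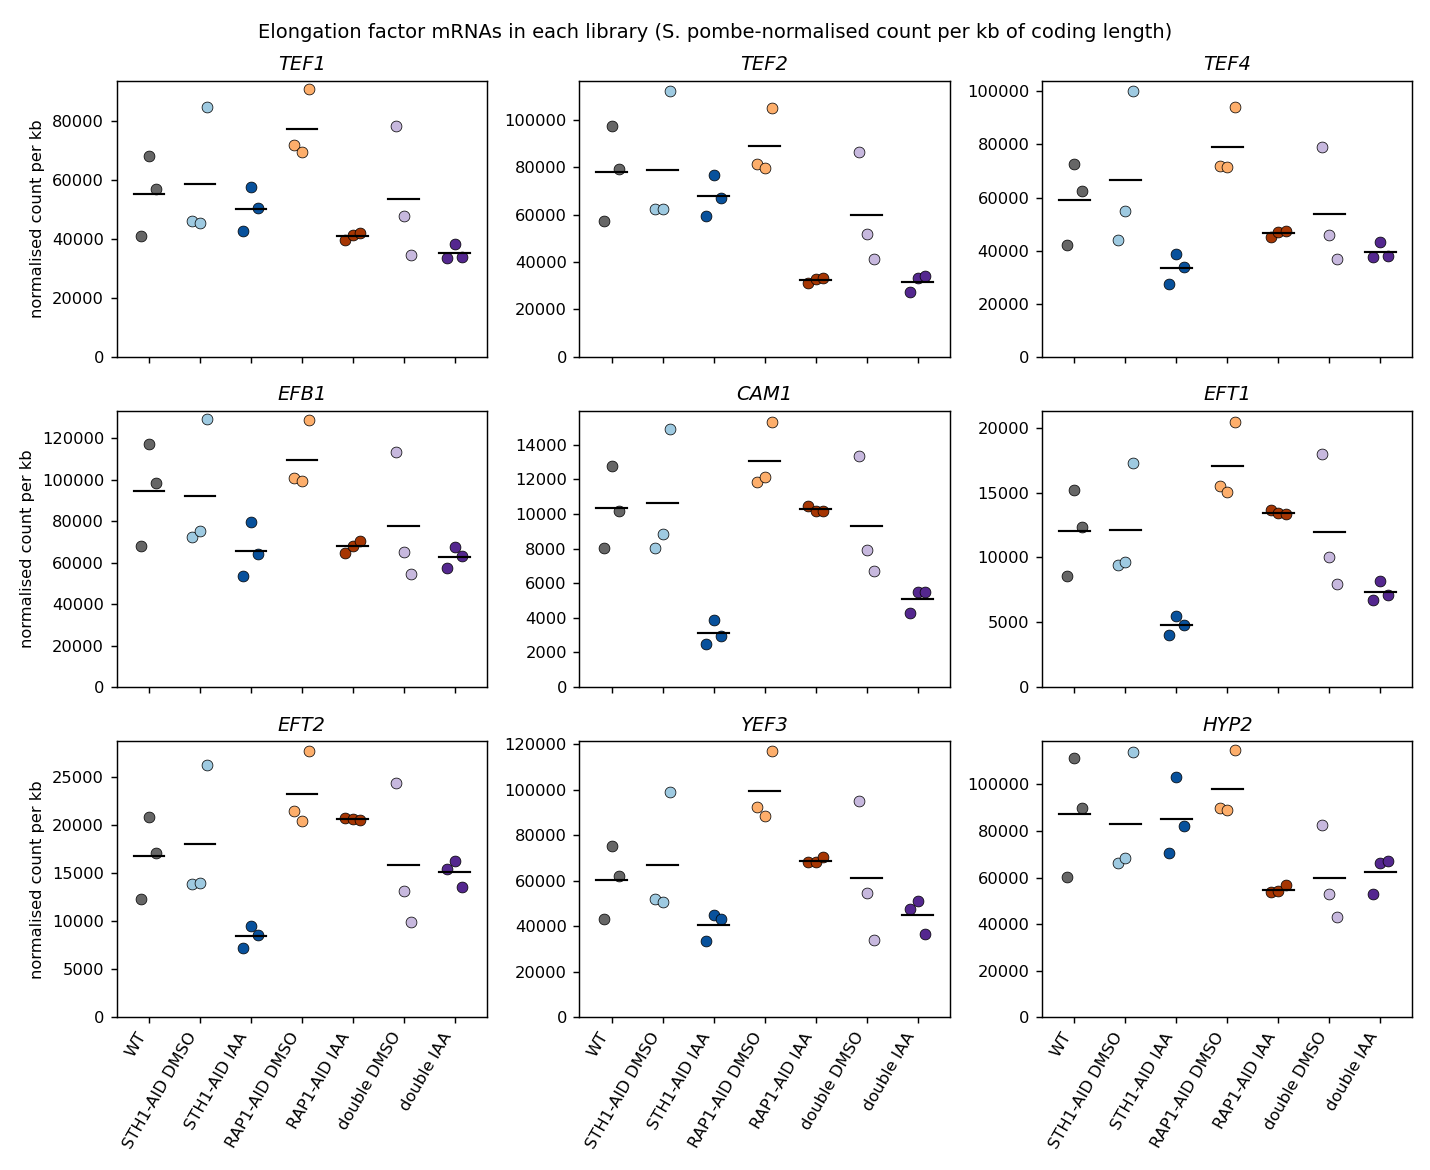
Normalised count per kb of coding length (linear axis from 0) of the 9 elongation factor genes in each of the 21 libraries. Points are libraries, horizontal bars are group means (n = 3), and double stands for STH1-AID RAP1-AID; the 3 IAA-treated RAP1-AID libraries of TEF2 sit between 30992 and 33124, below all of the DMSO-treated ones.

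TEF2 was the member called lower after Rap1 depletion. Its normalised counts per kb were 81516, 79722 and 105154 in the 3 DMSO-treated RAP1-AID libraries and 30992, 32842 and 33124 in the 3 IAA-treated ones. The groups did not overlap, and the highest DMSO library was replicate 3. The log2 fold change was -1.46 with an SE of 0.32 (edgeR quasi-likelihood, adjusted p = 0.000154), and without any single library it stayed between -1.53 and -1.32, the latter without that replicate 3, and was called each time. A gene was called when its adjusted p was under 0.05 and its absolute log2 fold change over 1. Thus 1 of the 9 members was called lower and none higher, against a background of 4.09% of all tested genes called lower and 0.4% called higher.

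TEF1, the other eEF1A gene, had 71748, 69614 and 90717 normalised counts per kb with DMSO and 39580, 41434 and 41876 with IAA in the RAP1-AID strain. Its groups did not overlap either, but the log2 fold change of -0.92 (SE 0.31) did not pass (edgeR adjusted p = 0.0706). HYP2 had 90042, 89167 and 114853 with DMSO and 53640, 54143 and 56624 with IAA, a log2 fold change of -0.84 (edgeR adjusted p = 0.151). The subunits of the exchange factor had log2 fold changes of -0.77 (TEF4), -0.69 (EFB1) and -0.35 (CAM1), YEF3 had -0.53, and the eEF2 genes had -0.34 (EFT1) and -0.17 (EFT2), with edgeR adjusted p from 0.235 to 0.803. All 9 values were below 0, and the median of the members was -0.69 beside -0.26 over all tested genes.

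With the spike-in, the fit over all libraries left an SE of about 0.31 on each value. With the same scaling, RAP1-AID libraries alone and a replicate block, SEs ran from 0.12 to 0.15. There 1 of 9 members was called lower, where 272 of 6078 genes were, and 6 had an edgeR adjusted p under 0.05. The number of all genes at that adjusted limit was not taken. At an unadjusted p under 0.05 there were 8 members, where 2329 of 6078 genes passed. The fits were also run with TMM (SE 0.06 to 0.12), which scales libraries on the bulk of S. cerevisiae genes. It therefore reports a change relative to that bulk. TEF2 was again called lower (log2 fold change -1.13, edgeR adjusted p = 4.24e-10), 1 of 9 members against 3.07% of all genes. With this smaller error, TEF1 (-0.59), HYP2 (-0.51), TEF4 (-0.44) and EFB1 (-0.36) had edgeR adjusted p of 2.92e-06, 2.78e-05, 0.000567 and 0.000528, with changes too small to be called. YEF3 (-0.20), CAM1 (-0.02), EFT1 (-0.01) and EFT2 (0.16) had adjusted p of 0.257 or more. TMM moved the median over all genes from -0.26 to 0.07.

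**Figure D2:**
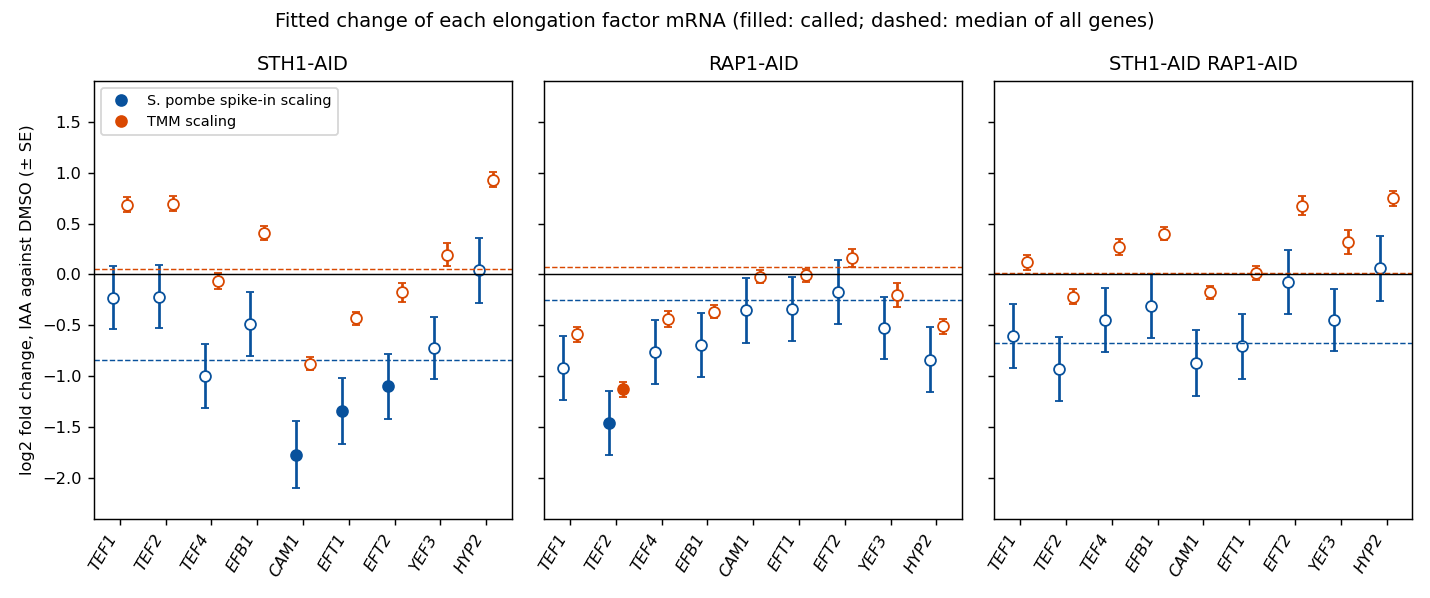
Fitted log2 fold change of each elongation factor gene, IAA against DMSO, in the 3 degron strains (points, with SE bars) with S. pombe spike-in scaling (blue) and TMM scaling (orange). Filled points were called, dashed lines mark the median over 6254 genes under each scaling, and TEF2 in the RAP1-AID strain is the member called under both.

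Levels were also compared within each library, as the log2 count per gene length of a gene relative to the median gene of that library, which needs no scaling factor. On this scale TEF2 went from 5.86 ± 0.02 with DMSO to 4.66 ± 0.07 with IAA in RAP1-AID cells (SD, n = 3), a difference of -1.20. The differences were -0.66 for TEF1, -0.58 for HYP2, -0.51 for TEF4, -0.44 for EFB1, -0.27 for YEF3, -0.09 for CAM1, -0.08 for EFT1 and 0.09 for EFT2. The DMSO and IAA libraries did not overlap for any of the 9, with 8 lower and 1 higher, where 26.0% of all tested genes were lower and 25.5% higher without overlap. An exact permutation test on 3 against 3 libraries cannot give a two-sided p below 0.1, and after adjustment over the 54 such comparisons the lowest was 0.174. The share of S. cerevisiae counts taken by the 9 genes was 2.403 ± 0.0104% with DMSO and 2.11 ± 0.0342% with IAA.

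The ratio of TEF1 to TEF2 counts, a measure within a library, turned over upon Rap1 depletion. Its log2 value was -0.49 ± 0.02 in WT, so that TEF2 was the higher copy, and -0.20 ± 0.01 in DMSO-treated RAP1-AID cells. With IAA it was 0.34 ± 0.01 (SD, n = 3 each), between 0.34 and 0.35 in the 3 libraries, so that TEF1 was the higher copy. The difference between IAA and DMSO was 0.54, and it stayed between 0.53 and 0.55 without any single library.

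In STH1-AID RAP1-AID cells the log2 ratio went from -0.18 ± 0.08 with DMSO to 0.16 ± 0.15 with IAA, again without overlap, although 1 of the IAA libraries stood at -0.0034. In STH1-AID cells it was -0.43 ± 0.02 and -0.44 ± 0.04, and the groups overlapped. The DMSO-treated libraries of the 2 strains with tagged Rap1 were also above WT, by 0.30 and 0.32, and those of STH1-AID cells by 0.06, with no overlap in any of these. Each of the differences without overlap had the smallest possible two-sided exact permutation p of 0.1, and 0.143 after adjustment over the 30 ratio comparisons, so none passed at this number of libraries. The ratio rests on the fragments that could be assigned to 1 of the copies, and where these fragments lie was not tested.

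**Figure D3:**
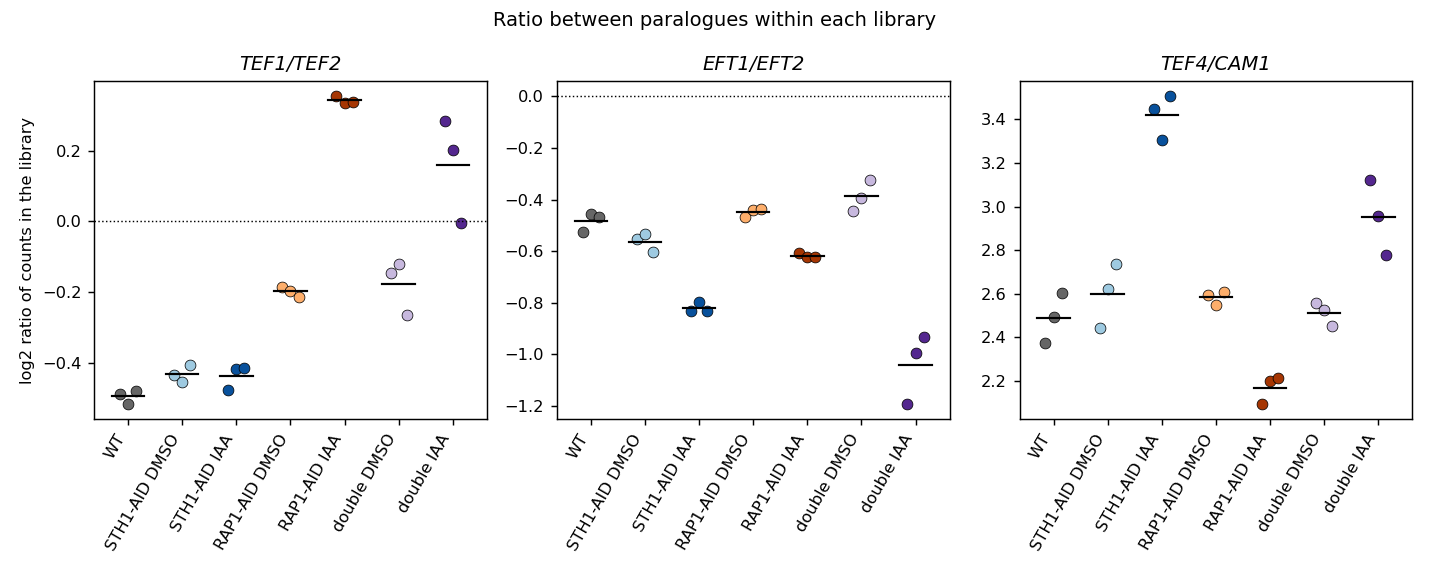
Log2 ratio of raw counts between related genes in each library for TEF1/TEF2, EFT1/EFT2 and TEF4/CAM1 (points are libraries, bars group means, n = 3; dotted line at 0 where it falls in the panel, double for STH1-AID RAP1-AID). TEF1/TEF2 is below 0 in WT and with DMSO and at 0.34 to 0.35 in IAA-treated RAP1-AID cells, while EFT1/EFT2 is lowest in IAA-treated STH1-AID RAP1-AID cells.

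After Sth1 depletion, the members called lower were CAM1 and the eEF2 genes. CAM1 had 8049, 8859 and 14938 normalised counts per kb in the 3 DMSO-treated STH1-AID libraries and 2496, 3888 and 2960 in the IAA-treated ones. These did not overlap, and the log2 fold change was -1.77 (SE 0.33, edgeR adjusted p = 3.62e-07). EFT1 had 9418, 9620 and 17302 with DMSO and 4046, 5480 and 4805 with IAA (log2 fold change -1.34, SE 0.32, edgeR adjusted p = 9.69e-05). EFT2 had 13827, 13941 and 26315 with DMSO and 7204, 9508 and 8560 with IAA (log2 fold change -1.10, SE 0.32, edgeR adjusted p = 0.00139). Replicate 3 was the high DMSO library for each of these genes.

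Thus 3 of 9 members were called lower and none higher, where 42.7% of all tested genes were called lower and 4.69% higher, so this count lies near the background. Without replicate 3 of the DMSO-treated cells, CAM1 (-1.44) was still called and EFT1 (-0.99) and EFT2 (-0.72) were not, where 31.0% of all genes were called lower. TEF4 had a log2 fold change of -0.996 (edgeR adjusted p = 0.00348), just short of the fold limit, and YEF3 had -0.72 (edgeR adjusted p = 0.031). EFB1 (-0.49), TEF1 (-0.23), TEF2 (-0.22) and HYP2 (0.04) had adjusted p from 0.17 to 0.919. The median of the members was -0.72 beside -0.84 over all tested genes.

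Relative to the bulk of the genes, the order of the members in Sth1-depleted cells was the same but its position shifted upwards. Under TMM none of the 9 was called in the STH1-AID strain, where 15.4% of all genes were called lower, and this scaling moved the median over all genes from -0.84 to 0.05. CAM1 was at -0.88 (edgeR adjusted p = 3.73e-10) and EFT1 at -0.43 (6.67e-06), while HYP2 was at 0.93 (7.21e-10), TEF1 and TEF2 at 0.69 (3.63e-08 and 7.34e-08) and EFB1 at 0.41 (1.61e-05). EFT2 (-0.18), TEF4 (-0.07) and YEF3 (0.20) had adjusted p of 0.0842 or more. At an unadjusted p under 0.05, 6 of 9 members differed by edgeR under TMM, where 4914 of 6254 genes did.

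Relative to the median gene of the same library, HYP2 was 1.19 higher with IAA than with DMSO, TEF1 and TEF2 0.95, EFB1 0.67 and YEF3 0.46, all on the log2 scale and without overlap. CAM1 was 0.62 lower. Thus 5 members were higher and 1 lower without overlap, where 54.0% of all tested genes were higher and 31.0% lower. The share of counts taken by the 9 genes was 2.15 ± 0.0643% with DMSO and 2.19 ± 0.0721% with IAA. TEF4 and CAM1, which encode the same subunit, parted from each other, with a log2 ratio of 2.60 ± 0.15 with DMSO and 3.42 ± 0.10 with IAA in STH1-AID cells against 2.58 ± 0.03 and 2.17 ± 0.07 in RAP1-AID cells (SD, n = 3, no overlap within either strain).

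With both proteins depleted, no member was called, where 32.6% of all tested genes were called lower and 3.49% higher. The edgeR test gave an unadjusted p under 0.05 for 3 of the 9 members, where 3549 of 6254 genes passed. DESeq2 also called none of the members. Same-numbered libraries of this strain deviated together, and with the replicate number as a block again no member was called, where 8.2% of all genes were called lower. TEF2 had 86589, 51744 and 41365 normalised counts per kb with DMSO and 27484, 33195 and 33907 with IAA. Its log2 fold change was -0.93 (SE 0.31, edgeR adjusted p = 0.00813), a difference without overlap that was smaller than the fold limit. CAM1 had 13336, 7902 and 6685 with DMSO and 4282, 5512 and 5494 with IAA (log2 fold change -0.87, SE 0.32, edgeR adjusted p = 0.0159). With the replicate block, TEF2 was at -0.86 (SE 0.53, edgeR adjusted p = 0.262) and CAM1 at -0.81 (0.305), so neither passed. In that fit 0 of the 9 members had an unadjusted p under 0.05, where 1866 of 6169 genes did.

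EFT1 (-0.71), TEF1 (-0.60), TEF4 (-0.45), YEF3 (-0.44), EFB1 (-0.31), EFT2 (-0.07) and HYP2 (0.06) had edgeR adjusted p from 0.0508 to 0.891 in this strain. Without replicate 3 of the DMSO-treated cells, 2 members were called lower, TEF2 at -1.13 and CAM1 at -1.06, where 43.6% of all genes were called lower, and without replicate 2 of them TEF2 was called at -1.02, where 35.4% were. Under TMM none was called against 6.57% of all genes lower, and EFT2 (0.68), HYP2 (0.75), EFB1 (0.40), YEF3 (0.32) and TEF4 (0.27) had edgeR adjusted p from 3e-08 to 0.0214, as TEF2 (-0.22) and CAM1 (-0.17) had 0.0136 and 0.022. By edgeR under TMM, 7 of 9 members had an unadjusted p under 0.05, where 4612 of 6254 genes did. In the comparison with the median gene of each library, 5 members were higher without overlap and none lower, where 37.6% of all genes were higher and 27.3% lower.

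The eEF2 genes parted in these cells. EFT2 had 24434, 13133 and 9962 normalised counts per kb with DMSO and 15410, 16261 and 13575 with IAA, and EFT1 had 17966, 10002 and 7965 against 6745, 8160 and 7108. The log2 ratio of EFT1 to EFT2 went from -0.39 ± 0.06 to -1.04 ± 0.14, a difference of -0.65 without overlap. In STH1-AID cells it went from -0.56 ± 0.04 to -0.82 ± 0.02 and in RAP1-AID cells from -0.45 ± 0.02 to -0.62 ± 0.01, with WT at -0.48 ± 0.04 (SD, n = 3 each, exact permutation p = 0.1 and adjusted p = 0.143 for each of the 3 IAA comparisons). As for eEF1A, the split between the copies is uncertain.

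Whether the strains differed in the effect of IAA was tested with interaction contrasts. For Rap1 depletion minus Sth1 depletion, 2 members were called, where 38.6% of all tested genes were called in either direction and the median over all genes was 0.54. The difference was -1.24 on the log2 scale for TEF2 (SE 0.44, edgeR adjusted p = 0.0161), which was lower after Rap1 depletion, and 1.42 for CAM1 (SE 0.45, edgeR adjusted p = 0.00689), which was lower after Sth1 depletion. EFT1 (1.00, edgeR adjusted p = 0.0635), EFT2 (0.93, 0.0866) and HYP2 (-0.88, 0.108) did not pass. Without replicate 2 of the DMSO-treated STH1-AID cells TEF2 was at -1.09 and no longer called. Under TMM the members called were TEF2 (-1.82), HYP2 (-1.44) and TEF1 (-1.28), with edgeR adjusted p of 1.97e-11, 3.09e-10 and 1.13e-09, where 32.3% of all genes were called, and CAM1 was at 0.85.

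For co-depletion minus Rap1 depletion, no member was called by edgeR (1 of 9 at an unadjusted p under 0.05) or by DESeq2, against 11.3% of all genes, and under TMM HYP2 was called (1.26, edgeR adjusted p = 1.46e-08) against 12.3%. For co-depletion minus Sth1 depletion, none was called by edgeR (2 of 9 at an unadjusted p under 0.05) or DESeq2 against 2.56%. For co-depletion minus the sum of both single effects, none was called by edgeR (3 of 9 at an unadjusted p under 0.05) or DESeq2 against 0.799%, with the 9 values between 0.54 and 1.31. The median over all genes was itself 0.54 there. In the order of these contrasts, 1744, 942 and 958 of 6254 genes had an unadjusted p under 0.05 by edgeR with S. pombe scaling. Under TMM no member was called in either of the last 2 contrasts. At an unadjusted p under 0.05, edgeR under TMM gave 6 members in each, where 2998 and 2601 of 6254 genes passed. For the sum contrast under TMM, the median of the members was 0.36 beside 0.01 over all genes. These last contrasts rested on replicate 1 of the co-depletion strain with DMSO, since without it 2 and 6 members were called higher, where 15.3% and 22.4% of all genes were called in either direction.

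DMSO-treated cells of each degron strain were also compared with WT. WT was untreated and lacked osTIR, so the tags, osTIR, DMSO and, for STH1-AID, the MET17 level cannot be told apart here. No member was called by edgeR or DESeq2 in the strain with tagged Sth1, with tagged Rap1 or with both. Of all tested genes, 1.39%, 12.8% and 6.92% were called there. At an unadjusted p under 0.05 edgeR gave 0, 1 and 0 members, where 405, 2400 and 942 of 6254 genes passed. The log2 differences ran from -0.07 to 0.17, from 0.17 to 0.72 and from -0.55 to 0.02, and the highest was that of YEF3 in RAP1-AID cells (0.72, edgeR adjusted p = 0.072), with a median over all genes of 0.52 in that strain. Under TMM none was called either, but TEF2 (-0.34), HYP2 (-0.35), EFB1 (-0.31) and CAM1 (-0.19) in RAP1-AID cells and the same genes with both tags (-0.40, -0.54, -0.30 and -0.17) had edgeR adjusted p under 0.05. At an unadjusted p under 0.05, edgeR under TMM gave 4 of 9 members in each of these strains, where 3212 and 3247 of 6254 genes passed. The less used paralogues of 2 members did differ. HEF3, which encodes a second eEF3 with 83.8% of residues identical to YEF3, had 69.4 ± 2.00 normalised counts per kb in WT and 181 ± 25.3 in DMSO-treated RAP1-AID cells (log2 difference 1.38, edgeR adjusted p = 0.000291, 0.79 and not called under TMM). ANB1, the eIF5A gene known to be expressed without oxygen, had 105 ± 47.2 in WT and, in the same order of strains, 423 ± 326, 292 ± 61.5 and 762 ± 573 with DMSO (SD, n = 3). It was called higher in each, and under TMM in all but RAP1-AID cells (0.78). Its protein shares 90.4% of residues with that of HYP2. In WT the counts of YEF3 exceeded those of HEF3 by a mean log2 ratio of 9.72 and those of HYP2 exceeded ANB1 by 9.74.

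Neighbouring genes were compared because a promoter region can serve both sides. The gene whose 5′ end lay nearest upstream was divergent for 6 members and tandem for MRL1 at TEF1, VPS17 at EFT1 and RCK2 at YEF3. TKL2, a transketolase gene divergent from TEF2 and 1233 bases away, was called higher after Rap1 depletion (log2 fold change 1.09, edgeR adjusted p = 0.0144) and after Sth1 depletion (1.17, 0.000996), and under TMM as well (1.401 and 2.05). RRP14, a ribosome biogenesis gene divergent from TEF4 at 561 bases, was called lower after Rap1 depletion (-1.89, edgeR adjusted p = 5.01e-07; -1.56 under TMM) and after co-depletion (-1.47), where TMM gave -0.74 and no call. SSA1, a chaperone gene divergent from EFB1, was called higher after Sth1 depletion (1.53, edgeR adjusted p = 7.19e-06, and 2.39 under TMM). Of all genes, 0.4% were called higher and 4.09% lower after Rap1 depletion, and 4.69% higher after Sth1 depletion. MRL1 (-1.79), DIG1 at CAM1 (-1.22) and VPS17 (-1.96) were called lower after Sth1 depletion, of which VPS17 (-1.07) was called under TMM too. These genes called lower after Sth1 depletion were 3 of the 8 tested neighbours, beside 42.7% of all genes. After co-depletion MRL1 (-1.56) and VPS17 (-1.02) were called lower together with RRP14, again 3 of 8, beside 32.6%. ATO3 at EFT2 and RCK2 were not called with S. pombe scaling in any of the strains, and UTR5 at HYP2 did not pass the filter on low counts.

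Sequence upstream of the members was searched for the core of the Rap1 motif, ACCCNNACA, on both strands within 500 bases before the start codon. It was found for 2 of 9 members (22.2%), TEF2 and TEF4, beside 5.31% of 6687 genes and 39.4% of 137 ribosomal protein genes. The longer Rap1 consensus with at most 1 mismatch was found for 0 of 9, beside 3.02% and 26.3%. The surroundings of both core matches are shown with the match in capitals, because TEF2 is the member called after Rap1 depletion. The match lay 426 bases before the start codon of TEF2 (chrII:477200-477280, + strand) and, on the opposite strand, 380 bases before that of TEF4 (chrXI:282466-282546, written on the + strand).
TEF2: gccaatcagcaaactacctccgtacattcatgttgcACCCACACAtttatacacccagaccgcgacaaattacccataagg
TEF4: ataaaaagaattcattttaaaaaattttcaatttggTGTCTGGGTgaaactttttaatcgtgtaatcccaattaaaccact
A match describes these letters and does not show a bound site, and no match in a window says nothing on binding there.

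The likeness of patterns was described by Pearson's r of log2 TMM-scaled abundance over the 21 libraries, which share strains and treatments. Among the members, HYP2 and EFB1 (0.96), TEF1 and TEF2 (0.92), HYP2 and TEF1 (0.91), EFB1 and TEF1 (0.90) and CAM1 and EFT1 (0.87) were close, while CAM1 and TEF1 (-0.68) and EFT1 and TEF1 (-0.68) ran opposite. EFT1 and EFT2 had an r of 0.50 in spite of identical products. Of all other genes, TEF2 was most like MET6 and HOM6 (0.98 each), which encode enzymes of methionine and of homoserine synthesis, EFT2 was most like SSB2 (0.98), a ribosome-associated chaperone gene, CAM1 was most like DMO2 and TIM50 (0.98 each), and TEF4 was most like ALA1 (0.87), the alanyl-tRNA synthetase gene. TEF1 was most like SFP1 (0.96), EFB1 like YLR179C (0.96), EFT1 like NUC1 (0.93) and YEF3 like KAP123 (0.94). HYP2 was most like MTC7 (0.996), which starts 29 bases after its end on the same strand, and reads shared with it were not tested.

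The members were placed beside other genes of translation, in lists chosen with earlier results of these data known. After Rap1 depletion, 128 of 137 cytoplasmic ribosomal protein genes were called lower with a median log2 fold change of -1.91, and none of 26 initiation factor genes, 7 termination and recycling factor genes or 17 genes for modification and assembly of elongation factors was called, with medians of -0.37, -0.29 and -0.38. Of all tested genes 4.09% were called lower and 0.4% higher, so no call in lists of this size lies near the background. Of 18 cytoplasmic aminoacyl-tRNA synthetase genes, KRS1, for lysyl-tRNA synthetase, was called (-1.10, edgeR adjusted p = 0.0133; -0.77 and not called under TMM), and ANB1 was called lower (-1.08, edgeR adjusted p = 0.0463; -0.75 and not called under TMM). The members' median of -0.69 lay between the ribosomal protein genes and the other lists.

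After Sth1 depletion, the list with the lowest median was that of the enzymes that modify and assemble elongation factors. Of its 17 genes, 14 were called lower (median -2.29), and 10 of 17 under TMM (median -1.38), beside 42.7% and 15.4% of all genes. Named after their values were seen, DPH5, a methyltransferase of the pathway that makes diphthamide on eEF2, was at -3.44, EFM5, which methylates eEF1A, at -3.20, and DYS1, which starts the hypusine modification of eIF5A, at -2.88. After co-depletion 13 of the 17 were called lower (median -1.54), and 2 of 17 under TMM, beside 32.6% and 6.57% of all genes. The counts called lower after Sth1 depletion were 5 of 26 initiation factors, 3 of 7 termination and recycling factors, 12 of 18 synthetases and 70 of 137 ribosomal protein genes, and after co-depletion 3, 2, 7 and 126. The shares of all genes called lower were 42.7% and 32.6%.

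**Figure D4:**
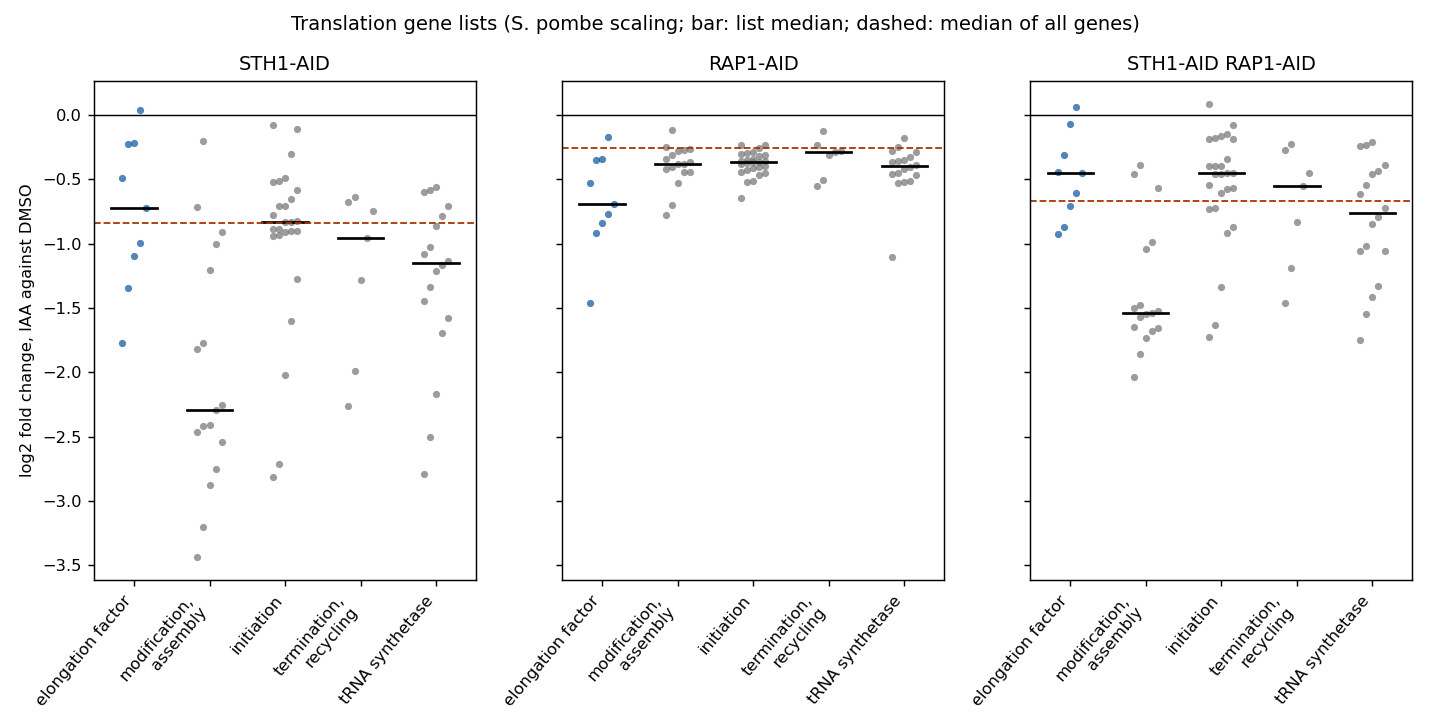
Log2 fold change, IAA against DMSO, with S. pombe scaling, of the genes in 5 lists of the translation apparatus (points are genes, bars list medians, the dashed line is the median over all 6254 genes). The 9 elongation factor genes (blue) have medians of -0.72, -0.69 and -0.45 in the panels from left to right, and the modification and assembly list has -2.29, -0.38 and -1.54.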

How the data were processed

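Per the methods and file headers, the authors trimmed adaptors, mapped paired reads with BWA 0.5.9-r16 unspliced to each genome, kept uniquely mapped pairs with fewer than 3 mismatches and an insert of at most 2 kb, and deposited raw strand-specific counts per protein-coding gene (featureCounts, Subread 1.5.1). Multi-mapping reads were lost, which affects TEF1, TEF2, EFT1 and EFT2.

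Groups followed the labels. All 21 libraries entered 1 quasi-likelihood fit (edgeR 4.0.16, R 4.3.3) with S. pombe median-of-ratios size factors, as the authors scaled. A call needed a Benjamini-Hochberg adjusted p below 0.05 and a log2 fold change beyond 1 in either direction. TMM, DESeq2 1.42.0, total S. pombe counts, no filter, fewer groups, left-out libraries and a replicate block were alternatives. Within-library ratios used a pseudocount of 0.5. The fit was tested on simulated data. Replicates differed beyond counting noise (chi-square over its degrees of freedom 2.89 to 94.0), and p-values measure the spread between these replicates. Sequences are from RefSeq R64, where 6008 of the identifiers matched, 6000 at the same coordinates.

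The members and lists were chosen with earlier results of these data known. Genes named besides the members and HEF3 and ANB1 were up to 3 called genes per list after Rap1 depletion, the nearest upstream neighbour and the 2 most alike genes per member. DPH5, EFM5 and DYS1 fall outside this rule and were chosen after their values were seen. Same-numbered libraries correlated at 0.52 to 0.70 in STH1-AID RAP1-AID cells (3 pairs, every r over 0.1), and at 0.09 to 0.22 in the other strains, where not every pair passed.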

Additional observations from a re-analysis of the deposited data

Results flagged for a closer look

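The effect of IAA differed between strains for TEF2 and CAM1 in a test of the difference itself. In this contrast 38.6% of all tested genes were called in either direction, and 32.3% under TMM. The median difference over all genes was 0.54, and -0.02 under TMM. For TEF2 the change after Rap1 depletion minus the change after Sth1 depletion was -1.24 on the log2 scale (SE 0.44, edgeR adjusted p = 0.0161), and under TMM it was -1.82. For CAM1 it was 1.42 (SE 0.45, edgeR adjusted p = 0.00689), and under TMM it was 0.85 and not called. Each change was seen against its own DMSO libraries, and for both genes the 3 IAA libraries lay below the 3 DMSO libraries in the strain where the gene was called. Without replicate 2 of STH1-AID with DMSO the TEF2 difference was -1.09 (edgeR adjusted p = 0.0518) and no longer called, while that of CAM1 ranged from 1.09 to 1.61 without any single library.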

How the results depend on the processing

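The call of TEF2 after Rap1 depletion was kept under every alternative run (log2 fold change from -1.53 to -1.32 without any single library, and -1.13 under TMM). Scaling moved the other results. Under TMM, and under the replicate block with TMM, 0 members were called after Sth1 depletion and 1 for co-depletion minus Rap1 depletion. Under TMM the sign turned after Sth1 depletion for TEF1 (0.69), TEF2 (0.69), EFB1 (0.41) and YEF3 (0.20), after Rap1 depletion for EFT2 (0.16), and after co-depletion for TEF1 (0.12), TEF4 (0.27), EFB1 (0.40), EFT1 (0.014), EFT2 (0.68) and YEF3 (0.32), and for Rap1 minus Sth1 depletion for TEF4 (-0.37) and YEF3 (-0.39). With the replicate block and TMM these were 0.64, 0.65, 0.36 and 0.15, then 0.095, then 0.068, 0.22, 0.35, 0.62 (EFT2) and 0.26, then -0.36 and -0.38. The change of scale follows from the construction of TMM, which centres the bulk of genes near 0.

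With the replicate block alone, members were called as before in every comparison (3, 1 and 0 with IAA in the STH1-AID, RAP1-AID and co-depletion strains, 2 for Rap1 minus Sth1 depletion), and EFT2 after co-depletion was at 0.033. Members with an edgeR adjusted p under 0.05 went from 1 to 6 after Rap1 depletion. They went from 5 to 4 after Sth1 depletion and from 2 to 0 after co-depletion. All genes were counted at an unadjusted p under 0.05 only. After Rap1 depletion the number of such genes went from 532 of 6254 to 2329 of 6078. After Sth1 depletion it went from 4042 of 6254 to 3646 of 6016, and after co-depletion from 3549 of 6254 to 1866 of 6169. Correlation with the own number was the highest for each library, although not every r passed in the single-degron strains.

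Without single libraries, the number of members called ranged from 1 to 4 after Sth1 depletion, from 0 to 2 after co-depletion, from 2 to 4 for Rap1 minus Sth1 depletion, from 0 to 2 for co-depletion minus Sth1 depletion and from 0 to 6 for co-depletion minus the sum. After Sth1 depletion TEF1 ranged from -0.38 to 0.13, TEF2 from -0.36 to 0.12 and HYP2 from -0.12 to 0.34. After co-depletion EFB1 ranged from -0.51 to 0.069, EFT2 from -0.32 to 0.39, YEF3 from -0.73 to 0.023 and HYP2 from -0.13 to 0.37. For Rap1 minus Sth1 depletion TEF4 ranged from -0.19 to 0.45 and YEF3 from -0.19 to 0.37. The TEF1/TEF2 ratio change after Sth1 depletion ranged from -0.016 to 0.016, that of HYP2/ANB1 from -0.24 to 0.42, and the levels relative to the library median after co-depletion from -0.16 to 0.012 for TEF2 and from -0.11 to 0.038 for CAM1. The cause of these shifts was not tested.

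With DESeq2, and with only the groups compared, EFT1 was also called for Rap1 minus Sth1 depletion (1.00). A pseudocount of 5 in place of 0.5 turned no ratio. The 13-letter Rap1 consensus gave 0 members in place of 2. Depth did not limit the members, all with at least 3897 raw counts in each library.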
